A study of Mus musculus with 15 samples.

Results

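Transgenic and wild type pancreas were compared after a saline injection, in 7 of the 15 arrays of the series: 3 transgenic and 4 wild type mice, chosen by their labels alone. All animals were male C57BL/6J mice that had fasted for 18 h, received 1 intraperitoneal injection and were killed 3 h later; for the saline mice the labelled time is 0 h. The other 8 arrays come from 4 transgenic and 4 wild type mice injected with 50 µg/kg cerulein, a cholecystokinin analogue that provokes acute pancreatitis. They give values of the same genes in other animals. They also entered the choice of probes to test and the estimate of spread behind the saline p-values. The labels call the animals transgenic without naming the promoter or the founder line, and the series title ties them to betacellulin and the receptor ERBB4. The design text speaks of 4 mice in each group, and a further transgenic saline mouse was not analysed here. RNA was taken from whole pancreas, so that a larger share of cells of a type and more RNA per cell cannot be told apart.

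Betacellulin, encoded by Btc, is a growth factor of the EGF family that binds the receptors EGFR and ERBB4. Ligand binding pairs ERBB receptors and activates kinases such as ERK, which in turn induce their own inhibitors of the Dusp, Spry and Spred families. In the exocrine pancreas most RNA comes from acinar cells, which secrete digestive enzymes, while ducts, islets, stellate cells, vessels and immune cells make up the rest. Albumin, fetuins and most other plasma proteins are classically products of the liver, which arises from the same foregut region as the pancreas.

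Levels are log2 spot signal minus the log2 of the array's 75th percentile, so a level of 0 means the signal at that percentile, and a difference of 1 is a doubling. That percentile lay between 152 and 283 intensity units on the saline arrays, and 54.9% to 68.2% of probes were well above background. Acinar transcripts were bright in both groups, with mean levels of the 30 measured digestive enzyme genes of 10.06, 10.66 and 10.71 on the transgenic arrays and 10.31, 10.97, 10.94 and 10.64 on the wild type arrays. The saline arrays lie on 2 slides: transgenic replicate 2 and wild type replicate 5 on slide 1, and the other 5 arrays on slide 3. Across genes, whose values are not independent, arrays of different genotype on the same slide correlated at a median r of 0.983 (7 pairs) and arrays of the same genotype on different slides at 0.965 (5 pairs). A fit with slide as a block was therefore made beside the fit without it. Transgenic replicate 2 stood apart from the other saline arrays in genes of the intestine, with a mean level of the 18 measured intestinal markers of 1.12, against -1.42 and -1.90 on the other transgenic arrays and -2.08 to -1.89 on the wild type arrays. Results that rest on that array are given with and without it.

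Transgenic pancreas held more RNA of a small set of genes led by plasma proteins. Of 17347 genes tested 13 rose (0.0749%) and none fell at an adjusted p below 0.05 (limma with Benjamini-Hochberg adjustment, n = 3 and 4), and all 13 differed at least 2-fold. At an unadjusted p below 0.05, 454 genes were higher and 104 lower, or 1067 and 706 with slide as a block. The 454 and 104 together are fewer than the share of 0.05 of all genes that chance alone would give on average. With slide as a block 40 genes rose (0.231%) and 1 fell (0.00576%), and all 13 were among the 40, with adjusted p from limma between 0.000122 (Serpina6) and 0.0476 (Mmp3). The 13 genes encode 5 secreted proteins typical of plasma (Serpina6, Ahsg, Alb, Fetub and Serpina10), the cytochromes P450 Cyp2c29 and Cyp2c68, matrix proteins and a matrix protease (Mgp, Lamc3, Mmp3), the signalling regulators Otud7a and Tiam2, and the deiodinase Dio2. In each of them every transgenic array lay above every wild type array, which was so for 4.42% of all genes, and 2.21% had every transgenic array below. Fitted on the 7 saline arrays alone, Serpina6, Alb, Otud7a and Mgp kept their calls, and within slide 3 Alb, Ahsg and Fetub did. Scaling to the median ended those of Mgp, Mmp3, Serpina10, Lamc3 and Cyp2c29. Alb lost its call in 1 setting, with slide as a block and without transgenic replicate 3 (adjusted p from limma = 0.0504).

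Serpina6 encodes corticosteroid-binding globulin, the carrier of glucocorticoids in blood. Its levels were 7.16, 8.80 and 8.63 in transgenic mice and 1.17, 0.20, 1.73 and 1.48 in wild type mice, a difference of 7.05 ± 0.50 (SE) or 133-fold. All 3 transgenic arrays lay far above the wild type range, and a separate probe for the gene gave 7.26. The adjusted p from limma was 1.1e-05, and 0.000122 with slide as a block.

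Alb encodes serum albumin, the main carrier protein of plasma. It was measured at 2.95, 4.69 and 4.44 in transgenic and at -1.65, -1.05, -1.13 and -1.23 in wild type mice. The lowest transgenic value lay well above the highest wild type value, and the difference of 5.29 ± 0.56 corresponds to 39.2-fold (adjusted p from limma = 0.000828).

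Ahsg encodes fetuin-A, a circulating inhibitor of calcification. The transgenic levels of 1.41, 3.88 and 4.17 stood against -0.71, -3.95, -3.17 and -3.27 in wild type mice. Both arrays of slide 1 departed from the rest of their group, the transgenic one downwards and the wild type one upwards, so that the difference was 2.12 within slide 1 and 7.49 within slide 3. The fit over all arrays gave 5.93 ± 0.71 (adjusted p from limma = 0.00296), and the call was lost when the 7 saline arrays were fitted alone.

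Fetub encodes fetuin-B, a protease inhibitor of plasma related to fetuin-A and encoded by the adjacent gene. Transgenic levels were 3.27, 5.38 and 5.28, and wild type levels were 2.09, 1.59, 1.73 and 1.20. The slide 1 pair was again closer together, with a difference of 1.19 against 3.82 within slide 3. The overall difference was 2.99 ± 0.43 (adjusted p from limma = 0.012), a call lost without transgenic replicate 3 or 4 or wild type replicate 8, with the 7 saline arrays fitted alone, and with the arrays of slides 1 and 3 only.

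Serpina10, which encodes the protein Z-dependent inhibitor of coagulation factor Xa and lies next to Serpina6, had levels of 2.93, 3.39 and 4.00 in transgenic and 1.75, 0.98, 1.89 and 1.97 in wild type mice. It rose by 1.79 ± 0.30 (adjusted p from limma = 0.0366), with 1.78 from its other probe. Its call held in 1 of the 7 fits that left out a saline array, the one without transgenic replicate 2.

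The other measured genes within 3 places of these were not called and differed in both directions. Near Serpina6 and Serpina10, Ifi27l2b differed by 1.56, Ppp4r4 by 0.40, Ifi27 by -0.04 and Serpina1f by -0.25. Near Ahsg and Fetub, Kng2 differed by 0.74, Kng1 by 0.63, Tbccd1 by 0.10, Dnajb11 by -0.24, Hrg by -0.48 and Crygs by -0.62. Near Alb, Afp differed by 0.58, Afm and Ankrd17 by 0.26 and Cox18 by -0.15. Neighbours were taken from RefSeq's gene order and chosen after their values were seen. The stretches of 250 bases before the annotated start sites of Alb, Ahsg and Fetub, from RefSeq on GRCm38.p6, are shown because these 3 plasma protein genes rose together and have an entry in the promoter table. Fetub has another annotated start, whose window at chr16:22919972-22920221 holds none of the motifs and is not shown.

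Alb, chr5:90460620-90460869, plus strand: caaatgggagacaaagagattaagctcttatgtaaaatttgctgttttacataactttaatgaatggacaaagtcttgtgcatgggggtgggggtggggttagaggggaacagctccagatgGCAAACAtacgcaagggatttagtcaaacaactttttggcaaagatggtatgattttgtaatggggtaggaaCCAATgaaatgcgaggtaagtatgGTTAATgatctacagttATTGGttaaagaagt
Ahsg, chr16:22891765-22892014, plus strand: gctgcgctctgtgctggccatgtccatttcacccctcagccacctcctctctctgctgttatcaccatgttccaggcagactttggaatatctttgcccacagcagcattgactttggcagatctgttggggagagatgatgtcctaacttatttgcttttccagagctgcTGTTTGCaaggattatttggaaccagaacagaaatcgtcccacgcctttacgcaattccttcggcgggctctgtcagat
Fetub, chr16:22918132-22918381, plus strand: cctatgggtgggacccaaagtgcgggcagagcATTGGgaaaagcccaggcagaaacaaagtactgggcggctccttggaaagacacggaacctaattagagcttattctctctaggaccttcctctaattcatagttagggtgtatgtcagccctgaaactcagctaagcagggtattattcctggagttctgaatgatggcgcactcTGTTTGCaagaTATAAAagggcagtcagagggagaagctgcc

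Capitals mark 4 motifs searched on both strands: TGTTTGC, a forkhead factor motif, GTTAAT, part of the site of HNF1 factors, TATAAA and CCAAT. They were chosen after the sequences were seen, and none overlaps another in these 3 windows. TGTTTGC was present before Alb (on the other strand), Ahsg and Fetub, and in 3 of the 12 windows of the 9 called genes that the promoter table holds, against 4.3% of all 32851 windows of this length. GTTAAT was present in 2 of the 12 windows, before Alb and Cyp2c68, against 6.43% of all windows. TATAAA was present in 4 of the 12 windows and CCAAT in 4, against 12.4% and 33.8% of all windows, so that CCAAT was about as frequent as in the background. These are matches of letters and show nothing about binding.

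Among plasma proteins as a list, 4 of 58 measured genes rose (Serpina6, Ahsg, Alb and Fetub), none fell, and the median difference was 0.29, beside 0.0749% called and a median of 0.0036 over all genes. Prothrombin, encoded by F2, rose by 1.10 with slide as a block (adjusted p from limma = 0.0447), although its lowest transgenic value of 1.89 lay below the highest wild type value of 1.92. Transgenic arrays were all above wild type arrays for 11 of the 58 and all below for 2, beside 4.42% and 2.21% of all genes, so that the count below is near the background. The 11 include, beside the 4, the retinol carrier Rbp4 (1.91 ± 0.41, adjusted p from limma = 0.194) and the copper protein Cp (1.20 ± 0.32), neither of which was called. Rbp4 stood at 2.48, 2.63 and 2.62 in transgenic mice and at 1.07, 0.44, 0.56 and 0.61 in wild type mice. Of the 2 with every transgenic array below, histidine-rich glycoprotein, Hrg, differed by -0.48 ± 0.30 and the angiogenesis inhibitor Serpinf1 by -0.58 ± 0.47, neither called.

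Enzymes and transporters of hepatocytes did not show the sizes seen for Serpina6, Alb and Ahsg. Of 36 names in this list 29 were measured and 1 rose (Cyp2c29), beside 0.0749% of all genes. The median difference was 0.12, or -0.14 without transgenic replicate 2. Every transgenic array lay above every wild type array in 2 of the 29 and below in 2, beside 4.42% and 2.21% of all genes. The log2 of the summed signal of the 29 lay between 9.86 and 10.26 on transgenic and between 9.76 and 10.18 on wild type arrays, and the unmeasured members include the bile acid enzyme Cyp7a1 and the urea cycle enzyme Otc. Of the defining markers, the urea cycle enzyme Cps1 had levels of -2.18, -4.75 and -4.37 against -2.70, -3.59, -5.12 and -4.16, and the P450 Cyp2e1 had 0.88, 0.58 and 0.48 against 2.95, 0.51, -0.10 and 1.10. The groups overlap in both. Tat, which degrades tyrosine, differed by -0.16 ± 0.30. Cyp3a11, a drug-metabolising P450, was at 0.54 on transgenic replicate 2 and between -2.88 and -2.46 on the other 6 arrays. Apolipoprotein A-I, Apoa1, made by liver and intestine, was at 1.06 on that array, at -2.74 and -3.82 on the other transgenic arrays and between -5.30 and -4.42 in wild type mice, with a difference of 3.03 ± 1.03 over all arrays and 1.58 without replicate 2.

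Cyp2c29, a P450 that oxidises drugs and fatty acids, was at -1.70, -1.48 and -1.55 in transgenic and at -2.78, -2.98, -2.97 and -2.81 in wild type mice. It rose by 1.31 ± 0.18 (adjusted p from limma = 0.00825), the smallest difference of the 13 with one of the tightest spreads. Cyp2c68, from the same gene cluster, rose by 1.94 ± 0.32 (adjusted p from limma = 0.0339), from -3.61, -3.92, -3.67 and -3.72 to -1.69, -1.40 and -2.27. It was well above background on 2 of the 4 wild type arrays, and its call was lost in each of the 7 fits that left out a saline array. Some Cyp2c genes are close in sequence, so that signal may be shared between them, which was not tested. Of the uncalled members beside both genes, Cyp2c67 differed by 1.19, Cyp2c65 by 0.82, Cyp2c39 by 0.54 and Cyp2c66 by 0.09. Cyp2c37 differed by -0.19, Cyp2c55 by -0.22 and Cyp2c38 by -0.37.

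**Figure D1:**
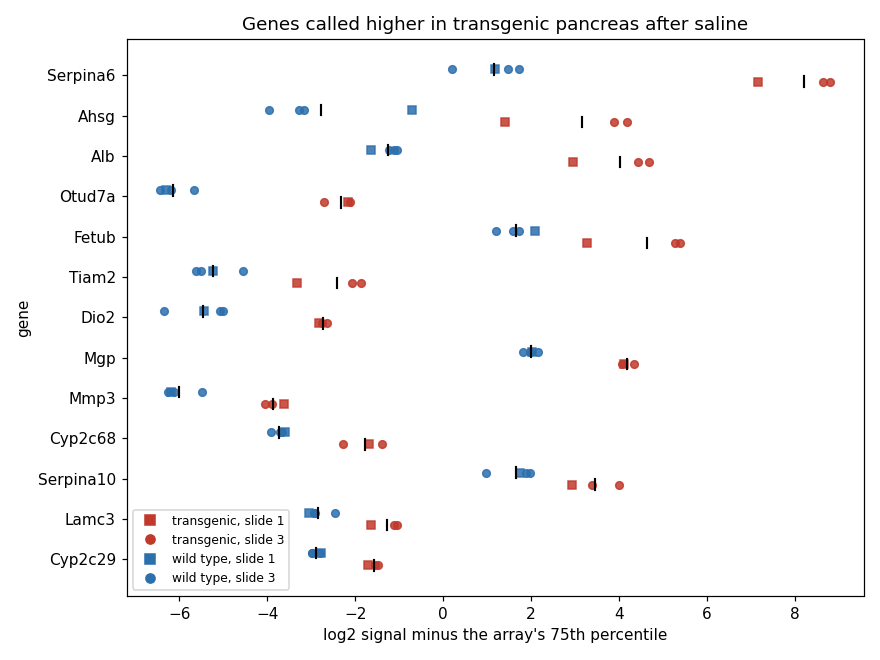
Level of the 13 genes called higher after saline, 1 point per array (red: transgenic, n = 3; blue: wild type, n = 4; squares: slide 1; circles: slide 3), with vertical bars at the group means; the x axis is log2 signal minus the array's 75th percentile. In each gene every transgenic point lies to the right of every wild type point, with the widest gap for Serpina6, and for Ahsg and Fetub the slide 1 points lie closest together.

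Genes of the extracellular matrix formed a second group. Mgp, matrix Gla protein, which like fetuin-A inhibits calcification, had levels of 4.11, 4.34 and 4.06 in transgenic and 2.01, 2.15, 1.82 and 1.97 in wild type mice. It rose by 2.18 ± 0.29 or 4.54-fold (adjusted p from limma = 0.00788; 0.000159 with slide as a block), with nearly the same difference within slide 1 (2.11) and slide 3 (2.22). Lamc3, a laminin chain of basement membranes, rose by 1.57 ± 0.24 (adjusted p from limma = 0.0222), from -3.06, -2.46, -2.93 and -2.91 to -1.64, -1.04 and -1.13. Its call held in 2 of the 7 fits that left out a saline array, those without transgenic replicate 2 or wild type replicate 6, and was lost with quantile normalization.

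Mmp3, stromelysin-1, a protease secreted by stromal cells, was not well above background on any wild type saline array and was above it on 1 of the 3 transgenic arrays. Only probes well above background on at least 3 of the 15 arrays were tested, and Mmp3 passed through transgenic arrays alone. Its fitted difference was 2.15 ± 0.36 (adjusted p from limma = 0.0366), but 0.94 from the authors' deposited table and 0.17 with normexp, neither called, so that no fold is given. Its call held in 1 of the 7 fits that left out a saline array, and the values were -3.63, -4.06 and -3.90 against -6.18, -6.12, -5.50 and -6.27.

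Of 30 measured genes of matrix and proteases 1 rose, beside 0.0749% of all genes, and the median difference was 0.52. The 1 gene was Mmp3, kept for testing through transgenic arrays alone. All transgenic arrays were above all wild type arrays in 13 of them and below in 2, beside 4.42% and 2.21% of all genes. Among the 13 were the gelatinase Mmp2 (1.13 ± 0.30) and the epithelial protease Mmp7 (1.43 ± 0.27, adjusted p from limma = 0.0962), which were not called. Mmp7 had levels of 0.35, 0.17 and -0.49 against -1.31, -1.47, -1.38 and -1.55, a narrow range in wild type mice.

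Fibroblast and stellate cell markers, genes of the cells that lay down pancreatic collagen, lay higher in 24 of 26 members, beside 50.7% of all genes. The median of the 26 was 0.48. None was called without slide in the model. With slide as a block Pdgfra, a receptor of platelet-derived growth factor on fibroblasts, rose by 1.48 (adjusted p from limma = 0.0476), and decorin, Dcn, a small proteoglycan that binds collagen, by 0.82 (adjusted p from limma = 0.0397). Pdgfra levels were 0.61, 0.94 and 0.84 against -1.09, -0.44, -0.59 and -0.42, and in 13 of the 26 genes every transgenic array was the higher, beside 4.42% of all genes. Periostin, Postn, a matrix protein of activated fibroblasts, differed by 2.28 ± 0.53, the collagen-binding Lum by 1.71 ± 0.42 and the collagen chain Col1a1 by 1.13 ± 0.49, without passing the test. The mean level of the list was 1.42, 1.91 and 1.81 in transgenic and 0.88, 1.21, 0.92 and 1.32 in wild type mice. Acta2, the smooth muscle actin of activated stellate cells, overlapped between the groups (0.15).

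Other genes called with slide as a block but not without it were chosen after their values were seen. Of these, Penk and Ccn2 also passed with quantile normalization (adjusted p from limma = 0.0457 and 0.0246). Penk, the enkephalin precursor, rose by 1.36 (adjusted p from limma = 0.00655), from 1.81, 2.37, 2.30 and 2.11 to 3.17, 3.64 and 3.60. Ccn2, connective tissue growth factor, a target of YAP and TGF-beta, rose by 0.92 (adjusted p from limma = 0.00661), with 1.25, 1.19 and 1.12 against 0.23, 0.35, 0.18 and 0.37. The Wnt receptor Fzd1 rose by 1.70, the calcium-binding S100a6 by 1.04 and the EGR cofactor Nab2 by 1.94, although a further Nab2 probe, above background on 7 of the 15 arrays, gave -0.03 in the same fit. Efr3b, which holds a lipid kinase at the plasma membrane, was the only gene called lower (-0.62, adjusted p from limma = 0.0488), with 0.0038, -0.06 and -0.02 against 0.54, 0.40, 0.74 and 0.68. At the other end of the fit without slide, the chemokine gene Cxcl14 had the groups apart (-0.92 ± 0.27) and was not called.

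Otud7a, a deubiquitinase, was well above background on all 3 transgenic arrays and on none of the 4 wild type ones. Like Mmp3, it was kept for testing through transgenic arrays alone, so this contrast is not separate support for its call. Its levels were -2.16, -2.11 and -2.71 against -6.31, -6.19, -5.66 and -6.44, which puts it at least 7.06-fold higher on this scale, with the dim group set, on each array, at the higher of its own value and the dimmest signal well above background (fitted 3.82 ± 0.36, adjusted p from limma = 0.000315). Slides 1 and 3 gave 4.14 and 3.68. Tiam2, an activator of the GTPase Rac, was at least 5.39-fold higher (fitted 2.81 ± 0.39, adjusted p from limma = 0.00825), with -3.33, -2.08 and -1.87 against -5.24, -5.51, -5.63 and -4.56. Dio2, the deiodinase that converts thyroxine to its active form, was at least 4.70-fold higher (fitted 2.73 ± 0.42, adjusted p from limma = 0.0222), with -2.83, -2.75 and -2.64 against -5.44, -6.34, -5.08 and -5.02. Neither was well above background on any wild type saline array, and Tiam2 lost its call without transgenic replicate 3 or 4 (adjusted p from limma = 0.12 and 0.0793). The authors' deposited table gave smaller log2 differences, 2.07 for Otud7a, 1.69 for Tiam2 and 1.52 for Dio2, which are below these bounds. With normexp background correction, Otud7a, Tiam2 and Dio2 differed by 0.61, 0.45 and 0.34 and were not called, nor were Mmp3, Lamc3, Cyp2c68 and Cyp2c29, while Serpina6 (6.92), Alb (4.36), Ahsg (4.11), Fetub (2.97), Mgp (2.15) and Serpina10 (1.65) kept their calls. Dio2 lost its call in 5 of the 7 fits without 1 saline array.

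The animals given cerulein were compared as other animals of the same genotypes. All 13 genes were higher in transgenic mice there too, 12 without overlap and 6 with a call (Serpina6, Alb, Fetub, Mgp, Lamc3 and Mmp3). Of all genes, 1.57% were higher without overlap and 0.138% were called higher in that comparison. Mmp3 and Otud7a were kept for testing through transgenic arrays alone, those after cerulein among them. Their part in these counts is therefore not separate support. Of all genes higher after saline, 75.1% were also higher after cerulein. Serpina6 had levels of 7.25, 7.96, 8.68 and 7.25 in transgenic and 1.85, 2.04, 2.48 and 0.96 in wild type mice, a difference of 5.95 ± 0.46. Alb differed by 5.18 ± 0.52 and Fetub by 3.71 ± 0.40, against 5.29 and 2.99 after saline. Ahsg differed by 2.36 ± 0.66 with levels of 3.15, 2.82, 2.38 and 2.05 against 0.72, 0.47, 0.23 and -0.47, so that the wild type values after cerulein lay above those of 3 of the 4 saline mice by more than 2 on the log2 scale. In the test of the difference between both genotype effects no gene passed. The 134 genes at an unadjusted p from limma below 0.05 are fewer than chance alone would give on average. With slide as a block 1 gene passed. That gene was Alox12e, an epidermal lipoxygenase, which was higher in transgenic mice after saline (0.79) and lower after cerulein (-0.33) in that fit. Among the 13, the unadjusted p from limma of the difference between both genotype effects was 0.000463 for Otud7a, 0.00239 for Ahsg, 0.00314 for Cyp2c29 and 0.0396 for Cyp2c68, each with the smaller difference after cerulein. Of the 13, 9 had the smaller difference after cerulein. The 13 were picked by their difference after saline, which is also part of this contrast. That choice favours a smaller difference after cerulein, so these p-values are not a fair test.

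**Figure D2:**
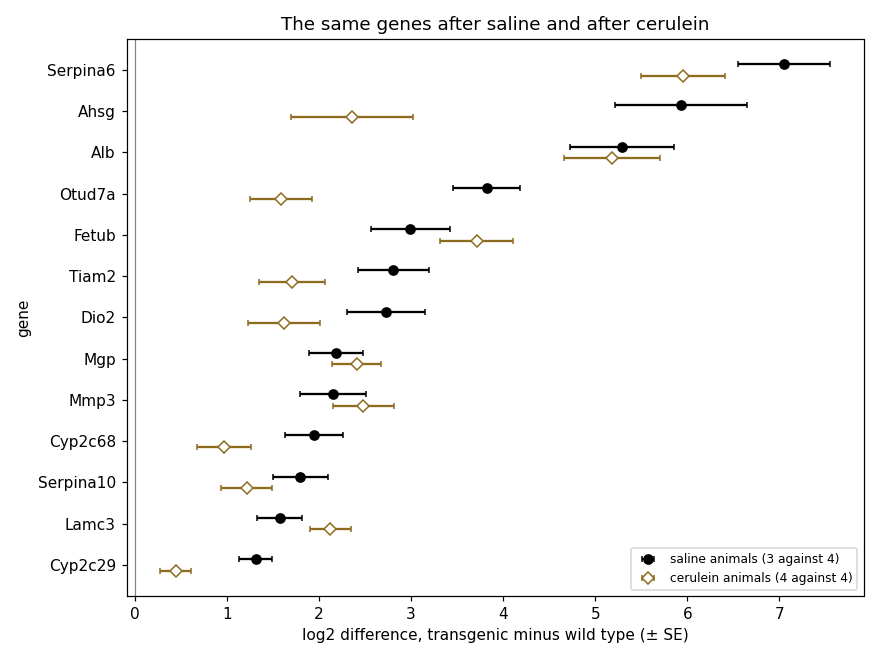
Difference between transgenic and wild type mice (log2, with the standard error) for the 13 genes, in the saline animals (filled circles) and in the cerulein animals (open diamonds). All points lie right of 0, Alb gives 5.29 and 5.18, and Otud7a and Ahsg have the largest gaps between both treatments.

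The betacellulin system itself was examined at the level of ligands, receptors and targets. The Btc probe had levels of -3.73, -4.29 and -3.56 in transgenic and -4.19, -3.63, -5.53 and -4.30 in wild type mice, was above background on 2 of 3 and 1 of 4 arrays, and differed by 0.55 ± 0.48 (adjusted p from limma = 0.9999). The groups overlap. The position of this probe in the transcript is not given in the sources used here, and it may lie outside the transgene, so it does not check the labels. Of 11 ERBB ligands 8 were measured, none was called and the median was 0.20; Egf, the most studied member of the family, differed by -0.23 ± 0.24, Tgfa by 0.19 ± 0.19 and Hbegf by 0.22 ± 0.33. Areg, Ereg and Nrg3 were too dim to be tested.

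Of 15 receptors and receptor inhibitors 14 were measured and none was called, with a median of 0.13. Egfr had levels of 0.32, 0.47 and 0.67 against -0.47, 0.46, 0.40 and 0.56, a difference of 0.25 ± 0.40. Erbb2, the coreceptor without a ligand of its own, differed by -0.02 ± 0.31 and Erbb3, a receptor of neuregulins, by 0.34 ± 0.36. Erbb4 was above background on 1 of the 7 saline arrays, transgenic replicate 2, and was not tested.

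Genes that respond to ERK lay mostly higher in transgenic mice without any call. Of 16 measured members 14 had a positive difference, beside 50.7% of all genes, and the median was 0.42 (0.10 with normexp). In 3 of the 16 every transgenic array lay above, beside 4.42% of all genes. The list's mean level was -0.94, -0.69 and -0.76 in transgenic and -1.33, -1.32, -1.20 and -1.26 in wild type mice. Etv1, a transcription factor induced downstream of ERK, came closest to a call, with -0.17, 0.16 and -0.29 against -0.98, -0.91, -0.88 and -0.76 (0.79 ± 0.20, adjusted p from limma = 0.418, and 0.0507 with slide as a block). The ERK phosphatase Dusp5 differed by 1.01 ± 0.42, the cyclin Ccnd1 by 0.79 ± 0.30 and the ERK phosphatase Dusp6 by 0.60 ± 0.35, while Spry2, a further feedback inhibitor, differed by -0.10.

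**Figure D3:**
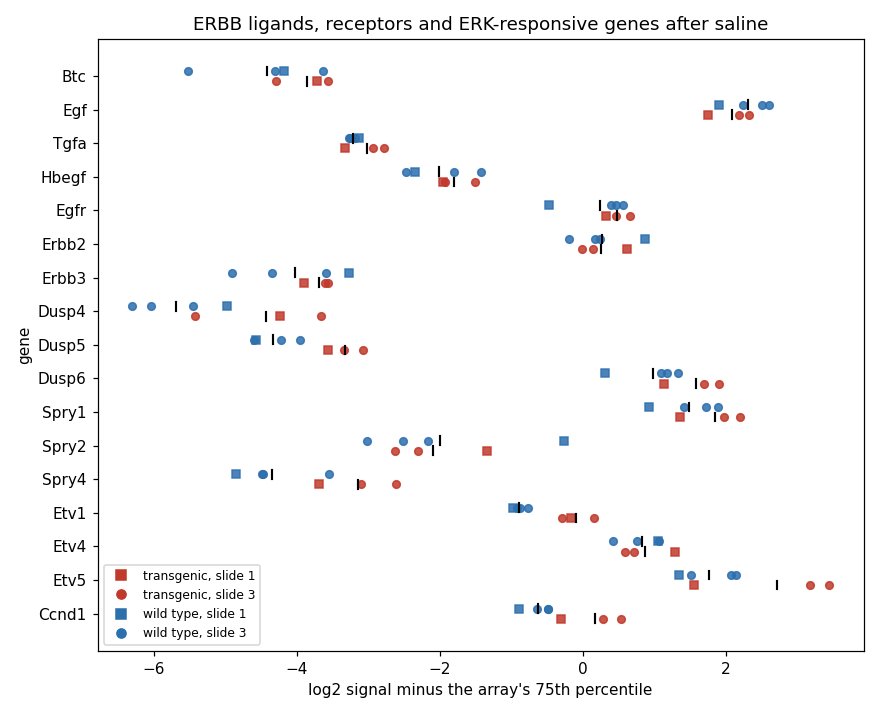
Levels of 4 ERBB ligands, 3 receptors and 10 genes that respond to ERK on each saline array (red: transgenic, n = 3; blue: wild type, n = 4; squares: slide 1; circles: slide 3; bars: group means), as log2 signal minus the array's 75th percentile. Btc, Egfr and Erbb2 overlap between the groups, while Dusp5, Etv1 and Ccnd1 do not.

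Digestive enzymes, the main products of acinar cells, had a negative difference in 30 of 30 measured members, while 50.7% of all genes had a positive one. None of the 30 was called, and their median was -0.23. Differences ran from -0.57 to -0.12, among them the carboxypeptidase Cpa1 (-0.16), the elastase Cela1 (-0.24) and the lipase Pnlip (-0.20). The median was -0.02 with quantile normalization and -0.02 without transgenic replicate 2. Without that array 13 of the 30 had a positive difference in the fit without slide, so the sign shared by all 30 rests on it there. The median stayed negative where slide was considered: -0.13 without that array with slide as a block, and -0.15 within slide 3. Of 14 measured acinar transcription factors 8 had a positive difference, none was called and the median was 0.04. Among them Ptf1a differed by -0.81 ± 0.35 with overlapping groups.

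Islet markers lay higher in 26 of 29 members, beside 50.7% of all genes, and none was called. Every transgenic array lay above every wild type array in 6 of the 29, beside 4.42% of all genes. The median of the list was 0.49, which was 0.83 within slide 1 and 0.29 within slide 3. Glucagon, Gcg, had levels of 5.34, 5.74 and 5.69 against 3.98, 4.84, 5.52 and 4.83, and Ins2, insulin, differed by 0.48 ± 0.34. Duct and metaplasia markers had a median of 0.22, with Krt19, a duct keratin, at 1.53, 1.10 and 1.08 against 0.14, 0.78, 0.96 and 0.89. Krt20, a keratin of intestine and metaplastic epithelium, was at 2.09, -0.06 and -0.16 against -2.90, -3.67, -2.88 and -2.16, and Vil1, which bundles actin in brush borders, at 1.36, -0.03 and 0.38 against -2.62, -2.27, -1.89 and -2.14. They differed by 3.52 ± 0.67 and 2.80 ± 0.50, short of a call (adjusted p from limma = 0.0996 and 0.0604), and by 2.79 and 2.41 without transgenic replicate 2.

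Markers of other cells are given because whole pancreas can hold them, and their part in the results above was not tested. Intestinal epithelium markers had a median of 1.07, which was 0.15 without transgenic replicate 2, where the fatty acid binding protein Fabp2 was at 4.96 against -2.14 and -2.43 on the other transgenic arrays. Without that array 12 genes were called higher, 10 of them among the 13, while Dio2, Mmp3 and Cyp2c68 lost their calls. The differences of Serpina6 (7.57), Alb (5.83), Ahsg (6.80) and Fetub (3.68) were larger than with that array, and those of Otud7a, Mmp3 and Cyp2c68 were smaller. Neutrophil and monocyte markers had a median of 0.82 (0.12 with normexp). Every transgenic array lay above every wild type array in 6 of the 13 measured, beside 4.42% of all genes. S100a9, a calcium-binding protein of neutrophils, was at 0.98, 1.85 and 0.13 against -2.90, -0.51, -4.05 and -4.18 (3.90 ± 0.77, not called). The antimicrobial peptide gene Camp rose by 1.10 with slide as a block (adjusted p from limma = 0.0447). Lymphocyte markers varied among wild type mice from -1.60 in replicate 7 to 1.63 in replicate 8, with all transgenic values between, and adipocyte markers were highest in wild type replicate 5 (1.15). Stomach markers had a median of -0.16, although Cblif, the intrinsic factor of the stomach, differed by 3.42 ± 0.60 (adjusted p from limma = 0.0568, or 0.0457 with quantile normalization) and was above background on 3 of 3 transgenic and 0 of 4 wild type arrays.

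**Figure D4:**
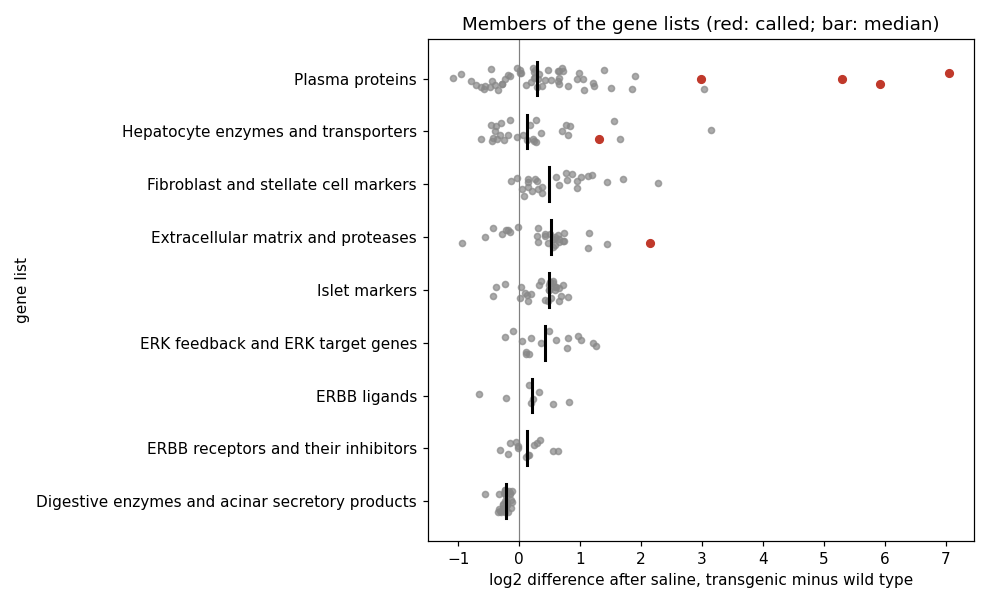
Difference after saline (log2, transgenic minus wild type) of the measured members of 9 gene lists, 1 point per gene, with called genes in red and the list median as a bar. The 4 called plasma proteins lie between 2.99 and 7.05, the uncalled Apoa1 lies at 3.03, the median of their list is 0.29, and all digestive enzymes lie left of 0.

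**Figure D5:**
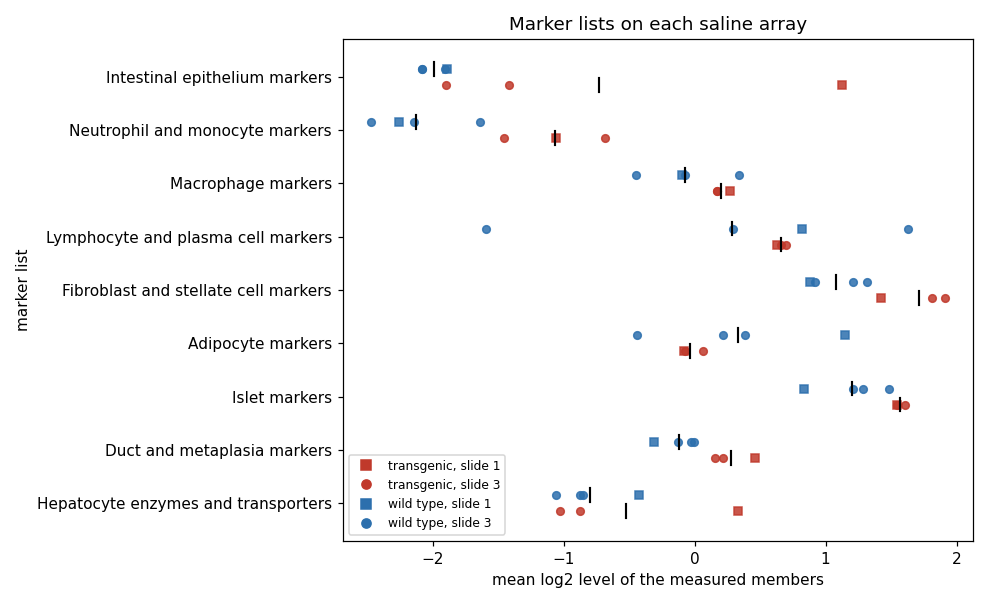
Mean log2 level of 9 marker lists on each saline array (red: transgenic, n = 3; blue: wild type, n = 4; squares: slide 1; circles: slide 3; bars: group means). Transgenic replicate 2, the red square, stands apart in intestinal markers at 1.12. The fibroblast, islet, duct and neutrophil lists each have their 3 transgenic arrays above the 4 wild type arrays.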

How the data were processed

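Scanner output of 15 one-colour Cy3 arrays was used. Per the file headers, the deposited intensity values are the authors' processed signals from Agilent Feature Extraction 10.7.3.1, background-subtracted and detrended within each array, with nothing done between arrays. Flag columns deposited with them hold 0 or 1 for each spot, a unit of their own (other). A series-wide deposited file holds log2 values whose normalization is not given in the sources used here, and served as an alternative only. Control spots and spots with an outlier flag (105 to 188 per array) were left out, and spots of a probe were averaged. Accessions were matched to RefSeq (GRCm38.p6) symbols for 27235 of 55681 probes; the others have none here.

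After subtraction of each array's 75th percentile, log2 signals were fitted with limma 3.58.1 in R 4.3.3 on 4 group means of all 15 arrays, which left 11 residual and 3.54 prior degrees of freedom. Probes well above background on at least 3 arrays were kept, and a gene was read from its brightest kept probe. Tests were two-sided, with Benjamini-Hochberg adjustment over 17347 genes, and the fit was tested on simulated data. How many arrays there are sets the precision; each comes from 1 animal, and p-values measure the spread between them. Slide was taken from the file names, which match the scanner headers. The files hold no mean signal column, so normexp used the median signal and local background with an offset of 50. Named genes are the called genes whose groups do not overlap, up to 2 called members per list, and Btc, Egfr, Erbb2, Erbb3 and Erbb4; other genes, neighbours and motifs were chosen after their values were seen. The members, the 46 lists and the tests were chosen with earlier results of these data known.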

Additional observations from a re-analysis of the deposited data

Results flagged for a closer look

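Wild type replicate 5 lay far from the other 3 wild type saline arrays in 4 of 45 genes examined: Egfr (-0.47 against 0.40 to 0.56), Bicc1 (1.68 against 2.29 to 2.42), Dcn (5.39 against 6.03 to 6.12) and Prss23 (0.17 against 1.01 to 1.18). The same array was lowest in the mean level of the ERBB signal transducers (1.14 against 1.49 to 1.55) and of autophagy and lysosome genes (2.34 against 2.67 to 2.73). It is the only wild type saline array on slide 1, so slide and animal cannot be told apart there. Wild type replicate 8 was lowest in the secretagogue receptors (-0.80 against -0.49 to -0.47). Each gap was too large for 4 samples by Dixon's criterion, which chance meets in about 1 group in 20, and 46 lists were examined. A probe without a gene symbol here, outside the fit over genes, was higher in transgenic saline mice by 4.20 ± 0.43 (adjusted p from limma over 42191 probes = 0.00109), with -0.98, 0.07 and 0.17 against -4.13, -4.74, -3.82 and -5.11, and was well above background on no wild type saline array.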

How the results depend on the processing

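No paired analysis was possible because the groups compared share no replicate numbers. All 13 genes kept their positive sign in every setting in which they were tested. Every transgenic array lay above every wild type array in them, so settings that only left out arrays could not reverse it. Against 13 higher and 0 lower genes, slide as a fixed block gave 40 and 1, slide as a random block 69 and 2, and array weights 403 and 161; fewer higher genes came from slide 3 alone (4), the 7 saline arrays alone (5), normexp (7) and scaling to the median (8), where none was lower. Leaving out 1 saline array gave 4 to 12 higher genes, the fewest without transgenic replicate 3 (4) and replicate 4 (6), then wild type replicate 8 (8), and 0 lower. Together with slide as a block, a setting chosen after seeing the data, it gave 5 to 31. Arrays of slides 1 and 3 only, also chosen afterwards, gave 9, and a fit over probes called 10 higher. After cerulein 25 genes were called, 115 with slide as a block, and for the difference between both genotype effects 0 and 1. Uncalled differences changed sign for Btc (-0.0264) and Erbb3 (-0.0615) with normexp, for Erbb3 within slide 1 (-0.63), and for Erbb2 without transgenic replicate 3 (0.03), transgenic replicate 4 (0.11) and wild type replicate 5 (0.18), over a range without 1 array from -0.2074 to 0.1758. The cause of these changes was not tested. Signal near background limits Otud7a, Tiam2, Dio2, Mmp3, Cblif and Btc.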
